A study of Schizosaccharomyces pombe with 9 samples.

Results

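The genes described here make leucine, isoleucine, valine and lysine in the fission yeast Schizosaccharomyces pombe. They were chosen by symbol from a list of 10 names (leu1, leu2, leu3, ilv1, ilv3, ilv5, lys1, lys2, lys3 and lys4), and 9 of the 10 names stood in the symbol column of the deposited tables, among 5212 genes listed. The remaining name, ilv3, was paired by the RefSeq ASM294v3 gene table with the identifier SPAC17G8.06c, whose deposited description is a predicted dihydroxy-acid dehydratase. It is described beside the 9 members and is in none of their counts. All 9 members passed the filter on low counts and were among the 5119 genes tested.

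Poly(A) RNA of whole cells was sequenced from 3 libraries each of htb1-E112K clr6-1 (E112K clr6-1), htb1-E112K (E112K) and WT. E112K is a substitution in histone H2B, which htb1 encodes, and both mutant strains carry it. The allele clr6-1 lies in clr6, the gene of a class I histone deacetylase, and a strain with clr6-1 alone was not analysed here. The labels give neither the growth medium nor the temperature, nor whether leu1 or a lysine gene was mutated or used as a marker in any strain, nor whether each library had a culture of its own, so the spread that the p-values measure may be technical. The libraries held 16469576 to 20013351 counts, and members had 3288 to 48192 counts in a library. Levels are CPM, a gene's share of the TMM-scaled library total, unless FPKM is named. As a share, CPM has the limit that a change in the RNA of a gene and a change in the total RNA of the cell cannot be told apart. The mutated genes themselves were measured but the substitutions cannot be read from counts: htb1 averaged 5435 ± 119 CPM in E112K clr6-1, 5131 ± 127 CPM in E112K and 1669 ± 43.0 CPM in WT, and clr6 averaged 119 ± 1.47, 87.1 ± 1.77 and 142 ± 7.08 CPM in the same groups (SD, n = 3 each).

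Valine and isoleucine are made by a shared set of enzymes. Acetolactate synthase (catalytic subunit Ilv1, regulatory subunit Ilv6) joins 2-oxo acids, the reductoisomerase Ilv5 rearranges and reduces the product, the dihydroxy-acid dehydratase removes water, and the branched-chain aminotransferase Eca39 adds the amino group. Leucine branches off the precursor of valine through Leu3, which adds an acetyl group, Leu2, which isomerizes the product, and Leu1, which oxidizes it. Fungi make lysine through alpha-aminoadipate. Lys4 starts that route from 2-oxoglutarate, Lys2 and Lys12 carry the chain to 2-oxoadipate, Lys1 reduces alpha-aminoadipate after Lys7 has activated it with a phosphopantetheine group, and saccharopine dehydrogenases finish the route. leu1 and lys1 are also common selectable markers of fission yeast genetics.

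In WT the members spanned a wide range of abundance. On the FPKM scale, which divides by transcript length and so allows genes to be set against each other, the WT means ran in the order ilv5 (1639 ± 63.8 FPKM), lys4 (668 ± 3.79 FPKM), leu1 (541 ± 15.1 FPKM), lys3 (526 ± 5.72 FPKM), leu2 (475 ± 6.43 FPKM), leu3 (253 ± 2.99 FPKM), ilv1 (175 ± 5.66 FPKM), lys2 (157 ± 3.64 FPKM) and lys1 (127 ± 5.60 FPKM; SD, n = 3 each). The WT libraries of leu1 and lys3 overlapped, and those of every other neighbouring pair did not. The gene of the reductoisomerase, ilv5, ranked 47 of 5212 genes by mean WT FPKM, and that of the aminoadipate reductase, lys1, ranked 936. In the E112K clr6-1 strain the order was the same except that lys3 (253 ± 5.42 FPKM) lay above leu1 (238 ± 1.98 FPKM). The rank of lys1 was 2374 in E112K clr6-1, 1635 in E112K and 936 in WT.

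**Figure D1:**
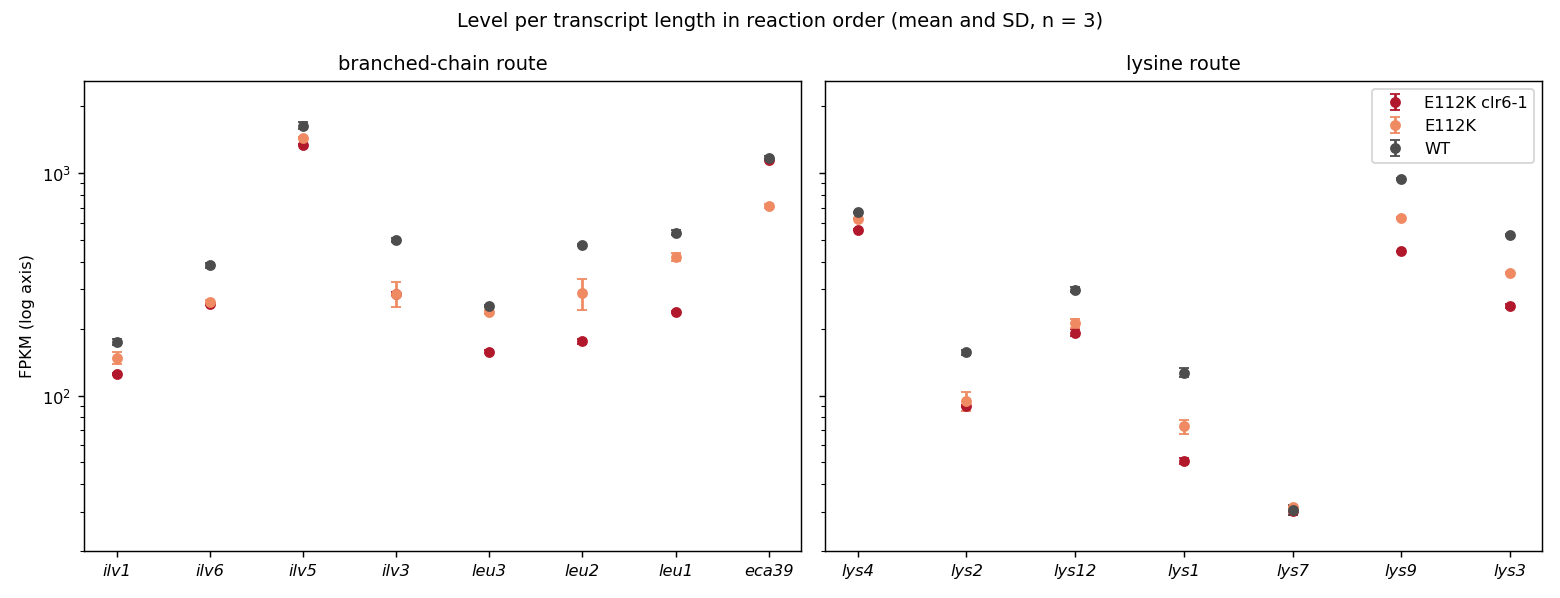
Level per transcript length of the genes of each route, in the deposited FPKM on a log axis, with genes along the horizontal axis in the order of the reactions. Points are group means and whiskers the SD (n = 3 each). In the lysine panel lys1 lies lowest of the 4 lysine members in each group, at a mean of 50.8 FPKM in E112K clr6-1, 72.7 FPKM in E112K and 127 FPKM in WT.

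All 9 members had their lowest mean in E112K clr6-1 and their highest in WT. Their summed level was 5320 to 5476 CPM in the E112K clr6-1 libraries, 6437 to 6937 CPM in the E112K libraries and 8175 to 8705 CPM in the WT libraries. This was 0.532 to 0.541% of the counts in E112K clr6-1, 0.641 to 0.685% in E112K and 0.837 to 0.869% in WT. The groups did not overlap. The leucine trio (leu1, leu2 and leu3) summed to 1156 ± 22.8 CPM in E112K clr6-1, 1884 ± 155 CPM in E112K and 2536 ± 74.3 CPM in WT. The lysine quartet (lys1 to lys4) summed to 1874 ± 25.7, 2272 ± 53.2 and 2981 ± 55.3 CPM in E112K clr6-1, E112K and WT, and ilv1 with ilv5 to 2375 ± 30.95, 2565 ± 51.8 and 2885 ± 144 CPM (SD, n = 3 each).

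**Figure D2:**
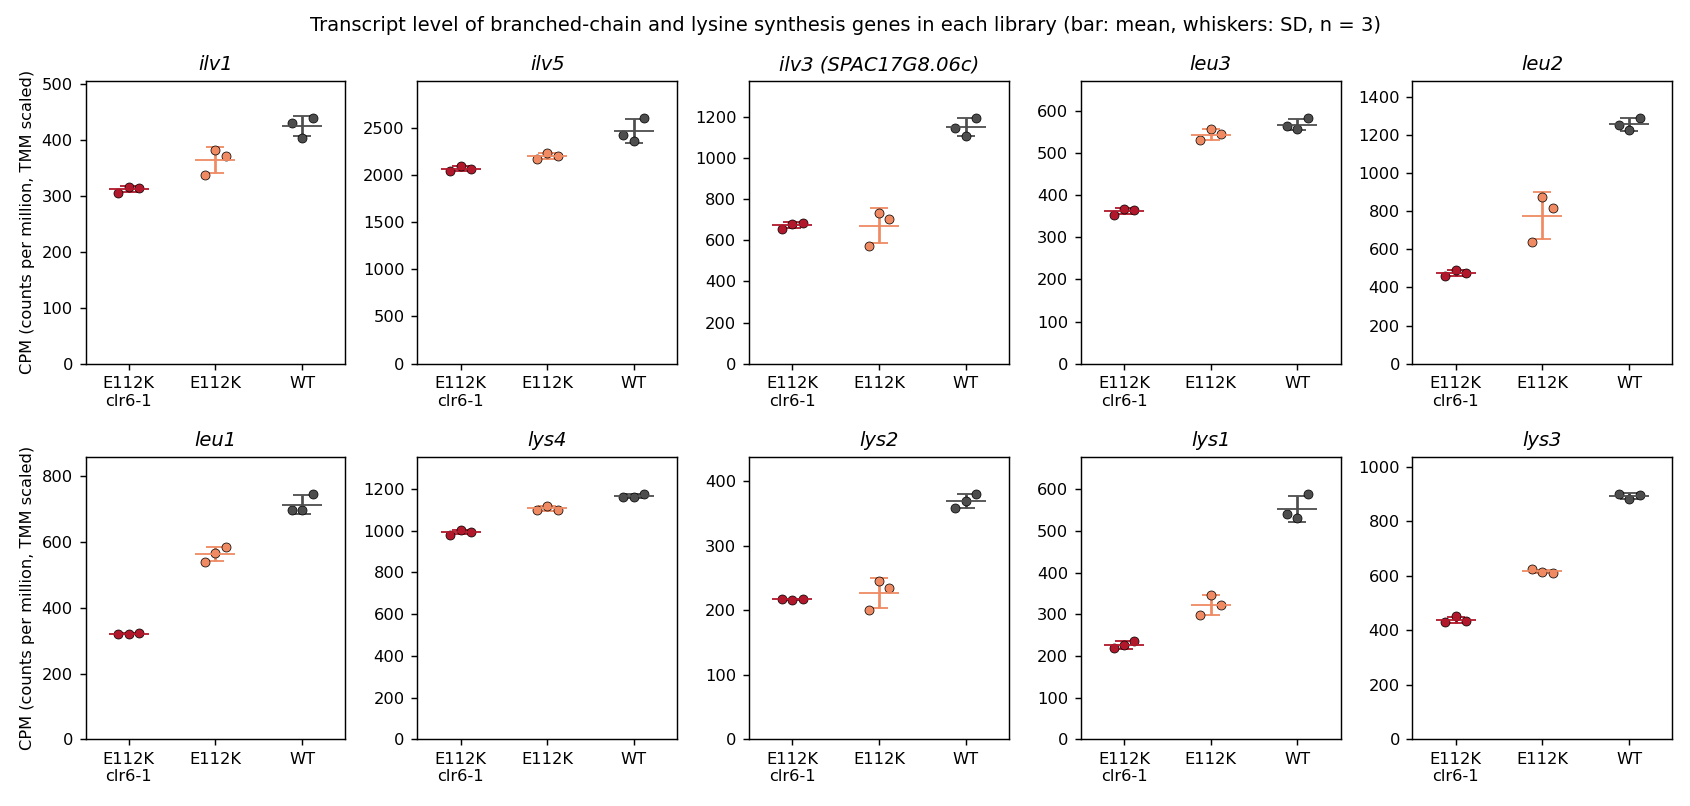
CPM of each member and of ilv3 in every library, one panel per gene with its own linear axis from 0. Points are libraries, bars group means and whiskers the SD (n = 3 each), with E112K clr6-1 on the left, E112K in the middle and WT on the right. For leu1 the means are 320.9, 563.3 and 713.4 CPM, whereas the E112K clr6-1 and E112K points of lys2 overlap.

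The substitution alone was compared first. In E112K against WT, 8 of the 9 members were called lower and 1, leu3, was not called, by edgeR's quasi-likelihood test at a Benjamini-Hochberg adjusted p under 0.05. Across all genes tested, 38.9% were called lower and 37.6% higher in this comparison. The median log2 fold change of the members was -0.34, with a range of -0.78 to -0.06, beside a median of -0.01 over all genes tested. The same 8 members had lower levels in every E112K library than in any WT library, a pattern that 39.8% of the genes tested shared. None fell by 2-fold or more, as 2.11% of the genes tested did.

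When E112K clr6-1 was compared with WT, all 9 members were called lower, against 42% of the genes tested called lower and 41.7% called higher. Their median log2 fold change was -0.77, from -1.41 to -0.23, beside a median near 0 over all genes tested. No member overlapped between these groups, and 42.7% of the genes tested were lower in that way. The 4 members leu1, leu2, lys1 and lys3 fell by at least 2-fold, and 3.24% of the genes tested did. The comparisons with WT share the WT libraries, so they are not independent of each other.

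The strains with and without clr6-1, which both carry E112K, were also compared directly. In E112K clr6-1 against E112K, 8 members were called lower and lys2 was not called, against 38.6% of the genes tested called lower and 40.2% higher. The members' median log2 fold change was -0.49, from -0.81 to -0.06, beside 0.01 over all genes tested. The groups did not overlap for the 8 members called, and 39.6% of the genes tested were lower in that way. None reached a 2-fold fall, which 2.83% of the genes tested did. The smallest of these 8 calls, ilv5, did not hold under 10 of 18 other settings, with an adjusted p of up to 0.15.

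**Figure D3:**
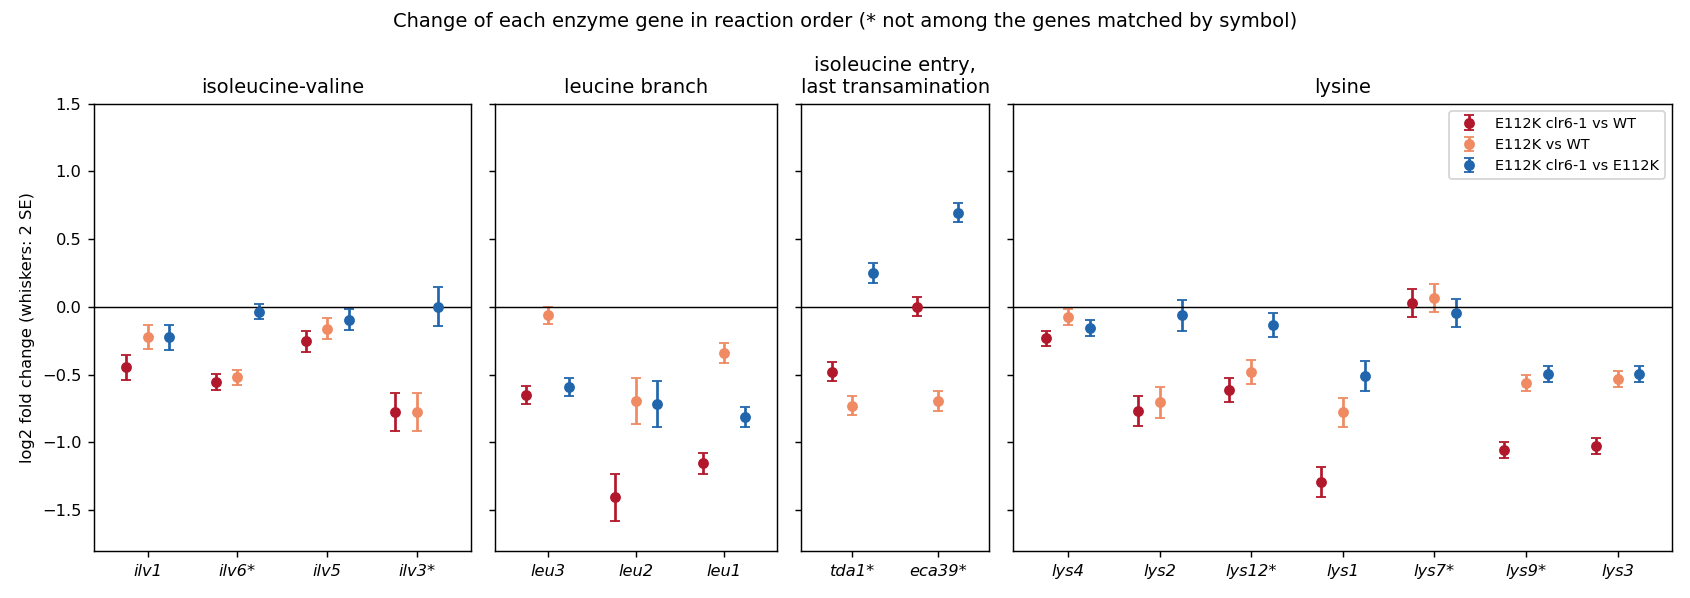
Log2 fold change of each gene of the routes in the 3 comparisons, from edgeR's quasi-likelihood fit, with whiskers of 2 standard errors and genes in the order of the reactions. Points under 0 are lower in the group named first, and an asterisk marks genes that were not matched by symbol. For leu1 the points lie at -1.15 (E112K clr6-1 against WT), -0.34 (E112K against WT) and -0.81 (E112K clr6-1 against E112K), and for eca39 at 0.00, -0.69 and 0.70.

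The 3 leucine genes were all lower in E112K clr6-1 than in both other groups, and leu1 and leu2 were also lower in E112K than in WT. leu3 encodes 2-isopropylmalate synthase, the entry enzyme of the branch. It had 353.3, 366.7 and 364.6 CPM in E112K clr6-1, 530.0, 557.0 and 544.3 CPM in E112K, and 563.3, 556.3 and 583.5 CPM in WT. The E112K and WT libraries of leu3 overlapped, and the E112K clr6-1 libraries lay below both. The log2 fold change of leu3 was -0.06 ± 0.03 in E112K against WT (SE, adjusted p = 0.0962, edgeR), a difference called lower under 3 other settings, upper-quartile scaling among them (-0.07, adjusted p = 0.0331). It was -0.65 ± 0.03 in E112K clr6-1 against WT (adjusted p = 7.07e-10) and -0.59 ± 0.03 in E112K clr6-1 against E112K (adjusted p = 3.40e-09).

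leu1, which encodes 3-isopropylmalate dehydrogenase (SPBC1A4.02c), had 320.3, 319.3 and 323.1 CPM in E112K clr6-1, 539.2, 567.4 and 583.3 CPM in E112K, and 697.9, 695.7 and 746.5 CPM in WT. No groups overlapped, and the transcript was present in every library, at 319.3 CPM or more. Its E112K level was 1.27-fold below WT (log2 fold change -0.34 ± 0.04, SE; adjusted p = 2.62e-06, edgeR). Its E112K clr6-1 level was 2.22-fold below WT (-1.15 ± 0.04, adjusted p = 1.27e-11) and 1.76-fold below E112K (-0.81 ± 0.04, adjusted p = 7.20e-10). With all libraries in the fit, this difference between the mutant strains was the largest of the 9 members.

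leu2 encodes 3-isopropylmalate dehydratase, the isomerase of the branch, which the deposited annotation lists as binding a 4Fe-4S iron-sulfur cluster. It had 457.3, 489.2 and 475.2 CPM in E112K clr6-1, 638.8, 875.2 and 815.8 CPM in E112K, and 1254, 1223 and 1289 CPM in WT. The groups did not overlap, but E112K replicate 1 lay well below the other E112K libraries. leu2 was 2.65-fold lower in E112K clr6-1 than in WT, the largest fall of any member (log2 fold change -1.41 ± 0.09, SE; adjusted p = 5.07e-09, edgeR). Its E112K level was 1.62-fold below WT (-0.69 ± 0.08, adjusted p = 6.70e-06) and 1.64-fold lower in E112K clr6-1 than in E112K (-0.71 ± 0.09, adjusted p = 5.36e-06). Without E112K replicate 1 these differences were -0.57 (adjusted p = 1.10e-07) for E112K against WT and -0.83 (adjusted p = 3.32e-09) for E112K clr6-1 against E112K.

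The isoleucine and valine members matched by symbol, ilv1 and ilv5, fell by at most 1.36-fold in any comparison. The gene paired with ilv3, described below, fell 1.71-fold against WT in each mutant strain. ilv1, the catalytic subunit of acetolactate synthase, had 305.6, 316.3 and 314.1 CPM in E112K clr6-1, 338.4, 382.4 and 371.9 CPM in E112K, and 430.8, 404.3 and 439.7 CPM in WT. Its groups were set apart in that order without overlap. The log2 fold changes of ilv1 were -0.22 ± 0.05 in E112K against WT (SE, adjusted p = 0.0006, edgeR), -0.45 ± 0.05 in E112K clr6-1 against WT (adjusted p = 8.75e-07) and -0.22 ± 0.05 in E112K clr6-1 against E112K (adjusted p = 0.000575). ilv5, the acetohydroxyacid reductoisomerase, had 2037, 2088 and 2065 CPM in E112K clr6-1, 2171, 2229 and 2203 CPM in E112K, and 2422, 2355 and 2602 CPM in WT. It was the most abundant member in every library, and its groups did not overlap either. ilv5 fell by 0.16 ± 0.04 on the log2 scale in E112K against WT (adjusted p = 0.00255) and by 0.25 ± 0.04 in E112K clr6-1 against WT (adjusted p = 5.50e-05). Its log2 fold change in E112K clr6-1 against E112K was -0.09 ± 0.04 (adjusted p = 0.0466).

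The gene paired with ilv3, SPAC17G8.06c, was lower in both mutant strains than in WT, and its difference between the mutant strains did not pass the test. It had 655.4, 679.2 and 681.8 CPM in E112K clr6-1, 573.5, 734.5 and 703.7 CPM in E112K, and 1147, 1108 and 1194 CPM in WT. The libraries of both mutant strains overlapped and all 6 lay far below WT. The log2 fold change was -0.78 ± 0.07 in E112K against WT (SE, adjusted p = 4.09e-07, edgeR) and -0.77 ± 0.07 in E112K clr6-1 against WT (adjusted p = 2.89e-07). Between the mutant strains it was 0.00 ± 0.07 (adjusted p = 0.971), and its sign changed under 6 other settings.

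Among the 4 lysine members, the entry enzyme changed least against WT. lys4, homocitrate synthase, had 980.8, 1003 and 992.3 CPM in E112K clr6-1, 1098, 1119 and 1100 CPM in E112K, and 1159, 1159 and 1177 CPM in WT. The groups were close but did not overlap. lys4 was 1.17-fold lower in E112K clr6-1 than in WT (log2 fold change -0.23 ± 0.03, SE; adjusted p = 6.13e-06, edgeR) and 1.11-fold lower than in E112K (-0.16 ± 0.03, adjusted p = 0.000261). The fall in E112K against WT was 0.08 ± 0.03 on the log2 scale (adjusted p = 0.029), and the call was lost under 7 of 18 other settings, with an adjusted p of up to 0.0799.

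lys2, homoaconitate hydratase, is the other member annotated with a 4Fe-4S cluster. It had 217.0, 216.5 and 217.3 CPM in E112K clr6-1, 200.5, 245.0 and 234.0 CPM in E112K, and 358.4, 368.8 and 380.5 CPM in WT. The mutant strains overlapped and both lay below WT. lys2 was 1.63-fold lower in E112K than in WT (log2 fold change -0.70 ± 0.06, SE; adjusted p = 1.21e-07, edgeR) and 1.70-fold lower in E112K clr6-1 than in WT (-0.77 ± 0.06, adjusted p = 3.38e-08). The difference of lys2 between E112K clr6-1 and E112K was -0.06 ± 0.06 (adjusted p = 0.326). Here single E112K libraries decided the value: without replicate 1 it was -0.14 (adjusted p = 0.0033), and without replicate 2 it was 0.0020 (adjusted p = 0.974).

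lys1 and lys3 act late in the route. lys1, the aminoadipate-semialdehyde dehydrogenase (aminoadipate reductase), had 218.0, 226.1 and 234.9 CPM in E112K clr6-1, 297.9, 346.7 and 322.9 CPM in E112K, and 539.2, 530.8 and 589.2 CPM in WT. Its groups did not overlap, and its E112K level was 58.3% of WT while its E112K clr6-1 level was 40.9% of WT. The log2 fold changes of lys1 were -0.78 ± 0.05 in E112K against WT (SE, adjusted p = 3.20e-08, edgeR), the largest fall of the 9 members in that comparison with all libraries in the fit, -1.29 ± 0.06 in E112K clr6-1 against WT (adjusted p = 1.54e-10) and -0.51 ± 0.06 in E112K clr6-1 against E112K (adjusted p = 2.19e-06).

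lys3, a saccharopine dehydrogenase, had 430.4, 451.5 and 434.5 CPM in E112K clr6-1, 623.7, 616.0 and 612.3 CPM in E112K, and 902.0, 881.9 and 897.8 CPM in WT. The libraries of each group were tight and the groups did not overlap. lys3 fell to 69.1% of the WT level in E112K (log2 fold change -0.53 ± 0.03, SE; adjusted p = 3.43e-09, edgeR) and to 49.1% in E112K clr6-1 (-1.03 ± 0.03, adjusted p = 4.22e-12). Its E112K clr6-1 level was 71.1% of the E112K level (-0.49 ± 0.03, adjusted p = 8.96e-09).

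The members fell by different amounts, and ratios between genes of a route were taken within each library. The ratio of leu1 to leu3 FPKM averaged 1.51 ± 0.0307 in E112K clr6-1, 1.76 ± 0.0528 in E112K and 2.14 ± 0.0355 in WT (SD, n = 3 each). The ratio of lys1 to lys4 FPKM averaged 0.0912 ± 0.00304, 0.117 ± 0.00775 and 0.190 ± 0.00917 in E112K clr6-1, E112K and WT, and that of lys3 to lys4 averaged 0.454 ± 0.00702, 0.573 ± 0.00907 and 0.787 ± 0.00965 in the same order of groups. None of these 3 ratios overlapped between any pair of groups. Single genes often lacked overlap too: 39.8% of those tested were lower in that way in E112K against WT. The share was 42.7% in E112K clr6-1 against WT and 39.6% in E112K clr6-1 against E112K. These shares leave out genes that were higher without overlap. Genes called higher were a further 37.6%, 41.7% and 40.2% of those tested in these comparisons. The exact two-sided permutation test of 3 against 3 libraries gave p = 0.1 for each of the 3 ratios, the smallest p this design allows. Adjusted over the 27 ratio comparisons made, most of which lacked overlap, it was 0.117. Any ratio without overlap gives this p here, so the test restates the lack of overlap and cannot decide whether a ratio shifted. By contrast lys3 over lys9, a pair of saccharopine dehydrogenase genes, averaged 0.568 ± 0.0171 in E112K clr6-1, 0.568 ± 0.00963 in E112K and 0.558 ± 0.00823 in WT, and the groups overlapped in each comparison. The pairs were chosen after values had been seen.

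**Figure D4:**
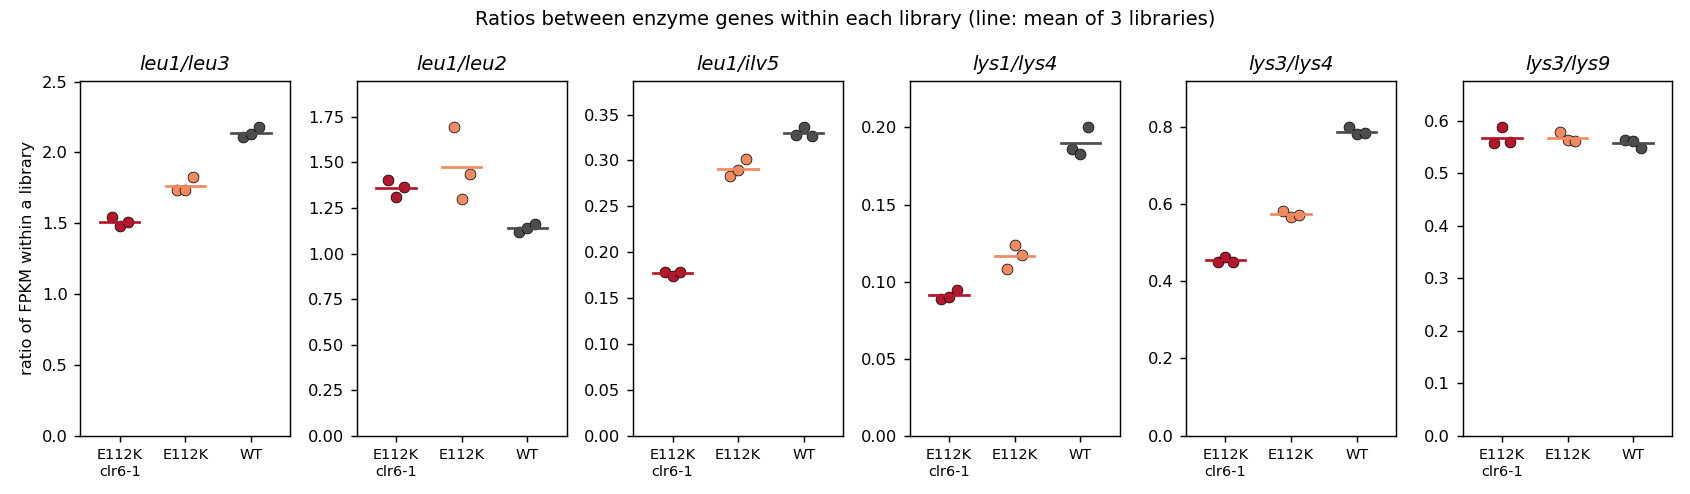
Ratios of FPKM between genes of a route within each library, on linear axes from 0, with E112K clr6-1 on the left, E112K in the middle and WT on the right. Points are libraries and bars are group means. The lys3 to lys4 panel steps through means of 0.454, 0.573 and 0.787, and the lys3 to lys9 panel stays at 0.568, 0.568 and 0.558.

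The other genes of the routes were read from a list of 6 (ilv6, eca39, tda1, lys7, lys9 and lys12). In E112K against WT 5 were called lower, beside 38.9% of all genes tested, and lys7 was not called. In E112K clr6-1 against WT 4 were called lower, beside 42% of all genes, and eca39 and lys7 were not called. Between the mutant strains 2 were called lower in E112K clr6-1 (lys9 and lys12), 2 higher (eca39 and tda1) and 2 were not called, near the shares over all genes (38.6% lower and 40.2% higher). The medians over the list were -0.54, -0.52 and -0.04 on the log2 scale in these comparisons.

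eca39, the branched-chain aminotransferase, was low in the E112K libraries alone. It had 1874, 1907 and 1917 CPM in E112K clr6-1, 1198, 1170 and 1150 CPM in E112K, and 1873, 1844 and 1975 CPM in WT. The E112K libraries stood alone at the low end, and the E112K clr6-1 and WT libraries overlapped. eca39 was 1.62-fold lower in E112K than in WT (log2 fold change -0.69 ± 0.04, SE; adjusted p = 1.50e-09, edgeR) and 1.62-fold higher in E112K clr6-1 than in E112K (0.70 ± 0.04, adjusted p = 1.61e-09). Its log2 fold change in E112K clr6-1 against WT was 0.00 ± 0.04 (adjusted p = 0.963).

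tda1, annotated as a threonine deaminase, which supplies the isoleucine precursor 2-oxobutyrate, had 382.4 ± 10.2 CPM in E112K clr6-1, 321.3 ± 8.94 CPM in E112K and 532.7 ± 17.6 CPM in WT (SD, n = 3 each). Its log2 fold change was -0.73 in E112K against WT (adjusted p = 8.38e-10, edgeR) and 0.25 in E112K clr6-1 against E112K (adjusted p = 2.61e-05). ilv6, the regulatory subunit of acetolactate synthase, averaged 332.5 ± 4.63, 340.2 ± 5.81 and 488.0 ± 9.44 CPM in E112K clr6-1, E112K and WT. It fell against WT in E112K (-0.52, adjusted p = 3.41e-09) and in E112K clr6-1 (-0.55, adjusted p = 1.14e-09), and the difference between the mutant strains was -0.03 (adjusted p = 0.306).

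lys9, which the reference table pairs with SPBC3B8.03, averaged 739.5 ± 4.16 CPM in E112K clr6-1, 1042 ± 8.19 CPM in E112K and 1534 ± 31.9 CPM in WT (SD, n = 3 each). Its log2 fold changes of -0.56 in E112K against WT (adjusted p = 2.07e-09, edgeR), -1.05 in E112K clr6-1 against WT (adjusted p = 3.25e-12) and -0.49 in E112K clr6-1 against E112K (adjusted p = 7.91e-09) lay beside those of lys3, -0.53, -1.03 and -0.49. lys12, the homoisocitrate dehydrogenase, averaged 291.9 ± 12.8, 320.2 ± 16.9 and 445.7 ± 15.7 CPM in E112K clr6-1, E112K and WT. It fell in both mutants against WT (-0.48, adjusted p = 5.39e-07 in E112K, and -0.61, adjusted p = 3.27e-08 in E112K clr6-1). Its call in E112K clr6-1 against E112K (-0.13, adjusted p = 0.0157) was lost without E112K replicate 1 (adjusted p = 0.0652), E112K replicate 2 (0.0755) or E112K clr6-1 replicate 1 (0.0951). lys7, the phosphopantetheinyl transferase that activates Lys1, stayed between 39.5 and 44.1 CPM in all 9 libraries.

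In fission yeast, amino acid starvation is sensed by the eIF2 alpha kinase Gcn2, which shares its target with the kinases Hri1 and Hri2, and the transcription factor Fil1 raises amino acid synthesis genes downstream of it. Of 6 genes of this response (fil1, gcn1, gcn2, gcn20, hri1 and hri2), gcn20 was called lower and the other 5 higher in E112K against WT, beside 37.6% of all genes tested called higher. In E112K clr6-1 against WT 4 were called higher, beside 41.7% of all genes, and none lower. Between the mutant strains 2 were called in each direction, near the shares over all genes (38.6% lower and 40.2% higher). The medians were 0.28, 0.19 and 0.07 on the log2 scale. fil1, which the reference table pairs with SPCC1393.08, had 406.6, 534.3 and 522.7 CPM in E112K clr6-1, 414.2, 456.1 and 426.9 CPM in E112K, and 275.4, 276.2 and 276.2 CPM in WT. All 6 mutant libraries lay above WT, opposite in direction to the members. fil1 was 1.77-fold higher in E112K clr6-1 than in WT (adjusted p = 5.83e-07, edgeR) and 1.57-fold higher in E112K than in WT (adjusted p = 8.08e-06).

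hri1 averaged 280.3 ± 16.4 CPM in E112K clr6-1, 98.4 ± 6.87 CPM in E112K and 78.8 ± 1.84 CPM in WT (SD, n = 3 each). It was 3.56-fold higher in E112K clr6-1 than in WT (adjusted p = 2.96e-12, edgeR) and 2.85-fold higher in E112K clr6-1 than in E112K (adjusted p = 3.84e-11). The log2 fold change of hri1 in E112K against WT was 0.32 (adjusted p = 0.000145). hri2 was higher in E112K (log2 fold change 0.46, adjusted p = 1.63e-07) and in E112K clr6-1 (0.28, adjusted p = 1.78e-05) than in WT. gcn20, whose product takes part in activating Gcn2 in budding yeast, was lower in E112K (-0.24, adjusted p = 1.89e-06) and higher in E112K clr6-1 (0.10, adjusted p = 0.00208) than in WT.

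**Figure D5:**
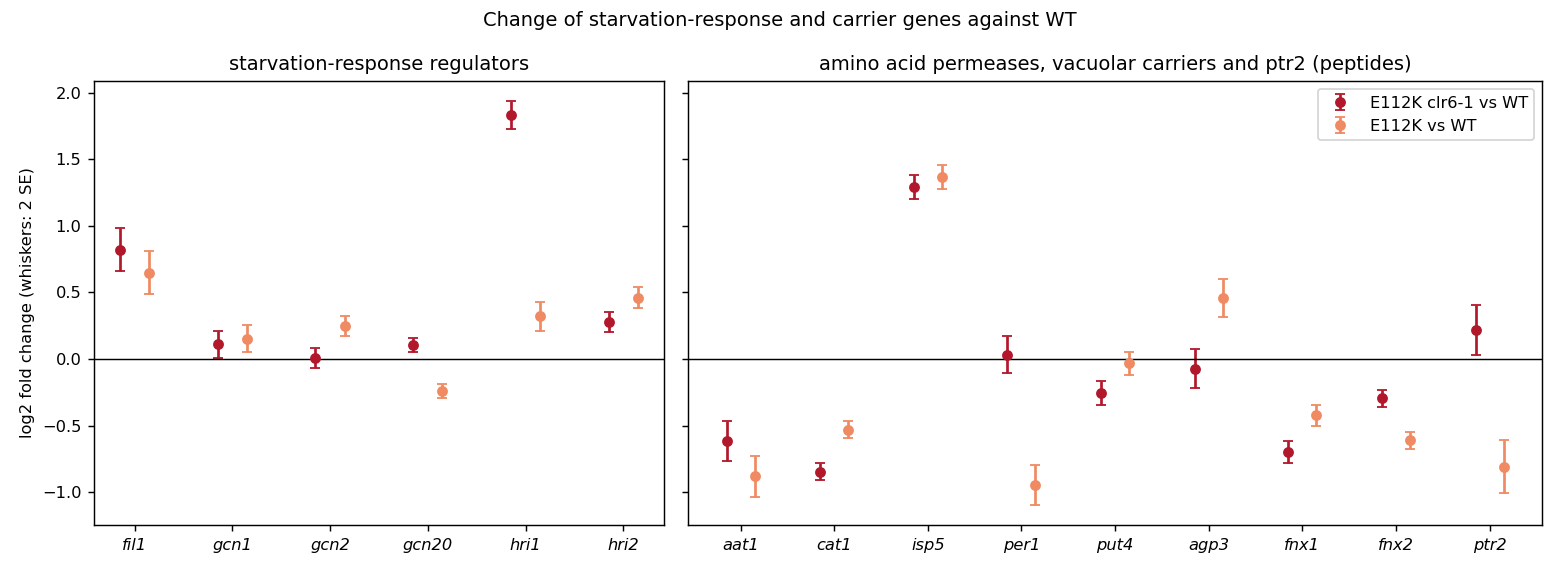
Log2 fold change against WT of the 6 genes of the starvation response and the 9 genes of the carrier list, in E112K clr6-1 and in E112K, from edgeR's quasi-likelihood fit. Points are estimates and whiskers 2 standard errors, and points above 0 are higher than in WT. hri1 stands highest among the response genes in E112K clr6-1, at 1.83, and isp5 highest among the carriers, at 1.29 in E112K clr6-1 and 1.37 in E112K.

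A carrier list held 9 genes: the permeases aat1, cat1, isp5, per1, put4 and agp3, the vacuolar carriers fnx1 and fnx2, and ptr2, which is described as a peptide transporter. Of the 9, 6 fell and 2 rose in E112K relative to WT, where 38.9% of all genes tested were called lower and 37.6% higher. In E112K clr6-1 relative to WT 5 fell and 2 rose, beside shares of 42% and 41.7% over all genes. One of these 2, ptr2, overlapped between the groups (log2 fold change 0.22, adjusted p = 0.0438, edgeR). In E112K relative to WT ptr2 was lower (-0.81). Between the mutant strains 4 were called in each direction, which is near the 38.6% lower and 40.2% higher over all genes. isp5, an amino acid permease, had 105.1, 106.2 and 105.2 CPM in E112K clr6-1, 113.2, 111.2 and 109.5 CPM in E112K, and 40.4, 43.2 and 46.1 CPM in WT. Both mutant strains lay above WT without overlap. isp5 was 2.44-fold higher in E112K clr6-1 than in WT (adjusted p = 2.05e-11, edgeR) and 2.58-fold higher in E112K than in WT (adjusted p = 1.89e-11). cat1, a cationic amino acid permease, was lower in E112K clr6-1 (log2 fold change -0.85, adjusted p = 5.42e-11) and in E112K (-0.53, adjusted p = 7.10e-09) than in WT. The vacuolar carriers fnx1 (-0.70, adjusted p = 2.80e-09 in E112K clr6-1, and -0.42, adjusted p = 5.42e-07 in E112K) and fnx2 (-0.30, adjusted p = 1.16e-06, and -0.61, adjusted p = 1.67e-09) were also lower than in WT.

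General stress genes moved with the groups as well. All 8 genes of a stress list (hsp16, ssa1, hsp9, ntp1, zym1, gpx1, tps1 and ctt1) were called higher in both mutant strains than in WT and lower in E112K clr6-1 than in E112K. Over all genes tested, 41.7% were called higher in E112K clr6-1 and 37.6% in E112K against WT, and 38.6% lower between the mutant strains. Their summed level was 2860 to 3008 CPM in E112K clr6-1, 7196 to 7528 CPM in E112K and 841 to 911 CPM in WT, and none of them was at 0 in any library. The members were lowest in E112K clr6-1, whereas these genes were highest in E112K, and their part in the members' levels was not tested.

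The spread between E112K libraries differed among the members. The coefficient of variation of CPM over the 3 E112K libraries was 15.8% for leu2, 12.7% for ilv3, 10.2% for lys2 and 7.58% for lys1, beside a median of 2.85% and a 95th percentile of 7.83% over 2543 genes with at least 100 CPM. In the E112K clr6-1 libraries leu2 had 3.37%, ilv3 2.17% and lys2 0.19%. The 3 genes with the widest spread in E112K are those of the 10 that the deposited annotation gives a 4Fe-4S cluster. In E112K replicate 1 their log2 CPM minus the mean of the other E112K libraries was -0.405 for leu2, -0.326 for ilv3 and -0.257 for lys2. Without that annotation, lys1 at -0.169 and ilv1 at -0.156 were also past the 5th percentile of -0.145 over those 2543 genes.

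The genes whose pattern lay closest to that of leu1, by Euclidean distance over its log2 fold changes of E112K and E112K clr6-1 against WT, were ade2 (adenylosuccinate synthetase; -0.35 and -1.08), mrp21 (a predicted mitochondrial ribosomal protein; -0.33 and -1.08) and SPBC543.08 (a predicted phosphoinositide biosynthesis protein; -0.44 and -1.16), beside -0.34 and -1.15 for leu1. The measure rests on 2 comparisons that share the WT libraries. Among the other members lys3 was closest to leu1, but it ranked only 37 among the genes tested by that distance. The remaining members ranked from 166 (leu2) to 1447 (lys4).

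In the deposited annotation 7 of the 9 members carry the pathway term for 2-oxocarboxylic acid metabolism, as 30 of 5212 genes do. The products of ilv1, ilv5, leu3, lys2 and lys4 are placed in the mitochondrion, and those of leu1, leu2, lys1 and lys4 in the cytosol. In the authors' deposited table none of the members passed an FDR under 0.05 with a change of 2-fold or more in E112K. In E112K clr6-1 4 passed, by the authors' log2 fold changes: leu1 at -1.18, leu2 at -1.44, lys1 at -1.32 and lys3 at -1.06. The share of all genes passing both cutoffs in the authors' values was not counted. In the edgeR fit, 2.11% of the genes tested were called lower by at least 2-fold in E112K against WT. The share was 3.24% in E112K clr6-1 against WT. In the reference annotation leu3 and ilv5 overlap no other gene and leu1 and leu2 overlap noncoding genes only. The coding partners of ilv1, lys1, lys2, lys3 and lys4 (air1, prm1, SPAC343.17c, psr1 and mrpl1601) had 15.4 to 58.1 FPKM in E112K clr6-1, 13.9 to 74.4 FPKM in E112K and 18.4 to 99.1 FPKM in WT. Whether counting used the strand is a point not given in the sources used here. Without it, reads from the shared stretches cannot be assigned to a partner.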

How the data were processed

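Poly(A) RNA of 9 libraries was grouped from the labels alone (3 each of E112K clr6-1, E112K and WT). The deposited tables hold, per the file headers, a whole-number count per gene and library and the authors' FPKM, and the authors' log2 fold changes with their p-value and FDR columns, used only where the authors' deposited table is named. The submitters' processing notes name DESeq2, RSEM, StringTie, HISAT2, Bowtie2 and fastp, with no version. Genome build, annotation and the strand counted are points not given in the sources used here. If the counts came from RSEM they are rounded estimates.

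All 9 libraries were fitted together in edgeR 4.0.16 under R 4.3.3 (quasi-likelihood test, TMM factors of 0.987 to 1.025, the filterByExpr filter with a count minimum of 10). The 3 contrasts were tested, and p-values were adjusted over 5119 genes. SE is the log2 fold change over the square root of its F statistic. The script was tested on simulated data. Replicates differed beyond sampling noise (chi-square per degree of freedom 2.96 to 9.70), and the common biological coefficient of variation was 0.0389. DESeq2 1.42.0, limma 3.58.1, other scalings and left-out libraries were alternatives.

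The members and lists were chosen with earlier results of these data known. Named were all members and route genes, htb1 and clr6, the 4 genes of the regulator list and of the carrier list with the smallest adjusted p against WT, and 3 genes most like leu1. The ilv3 pairing, the gene ratios and the iron-sulfur genes were chosen after values were seen. RefSeq ASM294v3 gave names and overlaps only. No sequences are printed.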

Additional observations from a re-analysis of the deposited data

How the results depend on the processing

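The 222 combinations of summary result and setting cover counts of genes and members called and the members' median log2 fold changes. No count moved by more than 1.5 times. The counts include that of members called higher, which was 0 in each comparison. Among these summaries direction was checked for the medians, which kept their sign in every setting. Direction was also checked for single genes, whose changes of sign are given below. The labels do not say whether replicate numbers pair the samples. Deviations of same-numbered libraries correlated by -0.145 to 0.146, and those of differently numbered libraries by -0.14 to 0.148. This check gave no sign of pairing but cannot exclude it. With a replicate block, 7 members were called lower in E112K against WT, 9 in E112K clr6-1 against WT and 7 in E112K clr6-1 against E112K. Over all genes, 1987, 2117 and 1947 of 5126 tested were called lower in that fit, in the same order of comparisons. The members' medians were -0.34, -0.76 and -0.49, and the calls lost were lys4 (adjusted p = 0.0519) and ilv5 (adjusted p = 0.0845).

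Signs changed only for values near 0 that were not called, and the cause was not tested. In E112K clr6-1 against WT, eca39 was -0.0269 with upper-quartile scaling, -0.0290 with total counts and -0.0288 on log2(FPKM + 1), and -0.0148 to 0.0357 in leave-one-out fits. lys7 was -0.0033, -0.0058 and -0.0046 in those settings and -0.0124 to 0.0624 in leave-one-out fits. In E112K clr6-1 against E112K, lys2 was -0.1374 to 0.0020 in leave-one-out fits, the ends being those without E112K replicate 1 and replicate 2. ilv3 was -0.00035 with DESeq2, -0.00056 with RLE scaling, -0.0142 with upper-quartile scaling and -0.0044 with total counts, and -0.0924 to 0.0789 in leave-one-out fits. With 3 libraries a group, the lys2 difference between the mutant strains (-0.06 ± 0.06, SE) was about the size of its standard error. It could not be told apart from 0.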

Other observations

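The spread of leu2, lys2 and ilv3 among E112K libraries was followed in other genes whose deposited annotation gives a 4Fe-4S cluster, a list chosen after values were seen. Of 17 such genes with at least 100 CPM, 7 (41.2%) lay more than 0.1 below the mean of the other E112K libraries in replicate 1 (log2 CPM), beside 266 of 2543 genes (10.5%). The median over the list was -0.07, beside 0.00 over all these genes. The lowest values were those of sdh2, an iron-sulfur subunit of succinate dehydrogenase (-0.66), cir2, an electron transfer flavoprotein oxidoreductase (-0.59), and aco1, an aconitate hydratase (-0.37). Other genes went the other way: isu1 lay at 0.135 and rad15 at 0.0268. Of the annotated genes under 100 CPM, nth1 lay at 0.259, SPBC18E5.10 at 0.24 and isa2 at 0.192. Against WT, 12 of 28 tested genes of the list were called lower and 9 higher in E112K, near the 38.9% lower and 37.6% higher over all genes. In E112K clr6-1, 9 were called lower and 14 higher, beside 42% and 41.7% over all genes. The largest falls of the list were those of lip5, a predicted lipoic acid synthetase, in E112K clr6-1 (-1.51, adjusted p = 4.01e-10, edgeR) and sdh2 in E112K (-1.46, adjusted p = 2.41e-07). bio2, biotin synthase, fell in E112K clr6-1 (-1.42, adjusted p = 5.71e-12) and in E112K (-1.16, adjusted p = 5.82e-11). isu1, the scaffold on which the clusters are assembled, rose most in E112K clr6-1 (2.55, adjusted p = 3.40e-14) and in E112K (1.80, adjusted p = 7.74e-13).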
